A study of Auxenochlorella pyrenoidosa with 12 samples.

Results

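Cells of Chlorella pyrenoidosa under potassium peroxymonosulfate (PMS) were compared between day 3 and day 0 of the exposure, over 15128 of the 30814 contigs in the deposited expression table. A contig, an assembled transcript sequence, entered the comparison if it reached 1 FPKM in both libraries of day 3, of day 0, or of both days. FPKM is a fragment count scaled to the length of the contig and to the size of the library. The alga, also named Auxenochlorella pyrenoidosa, is a unicellular freshwater green alga, and whole cells were used. Both days come from cultures at 8.49 mg/L PMS, which is 0.5 of the concentration with a median effect (EC50) in the acute test of the study. The series holds 12 libraries in 6 groups, 2 for each of 5 treated days (day 0, day 3, day 6, day 9 and day 12) and 2 for an untreated control. Per the titles, the day 3 and day 0 libraries carry the numbers 1 and 2, and no label says whether they came from separate cultures. P-values thus measure the spread between libraries of a group, pooled over the 6 groups in 1 fit, which may be technical. No untreated culture of day 3 was analysed here, so the time under PMS and the age of the culture cannot be told apart.

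PMS is a peroxide-type oxidant used to disinfect and treat water, and it can give rise to sulfate and hydroxyl radicals. Green algae meet such oxidants with enzymes such as superoxide dismutase, catalase and ascorbate peroxidase, and with the glutathione and ascorbate pools. The chloroplast is itself a source of reactive oxygen, which is why photosynthesis is a usual readout of oxidant stress in algae. The table gives assembler IDs without gene names or annotation, so none of these genes could be looked up, and contigs are described by level, size of change and course.

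Both libraries of a day agreed closely over the 15128 contigs, with an exception in day 3 library 1 that touches part of the rises. Entry asks for 1 FPKM in both libraries of a day, which itself favours such agreement. On log2(FPKM + 1) the Pearson correlation across contigs was 0.964 between the day 3 libraries and 0.977 between the day 0 libraries. Between a day 3 and a day 0 library it was 0.654 to 0.709. Total FPKM was 585605 and 530114 in the day 3 libraries, against 596225 and 603105 in the day 0 libraries. Reads per library are unknown. Day 3 library 1 listed 4421 contigs of the whole table at 0 and library 2 listed 8222, against 10214 and 11064 in the day 0 libraries. Over all 30814 contigs, day 3 library 2 had a rank correlation of 0.788 and 0.771 with the day 0 libraries, about that with day 3 library 1, 0.780. Day 3 library 1 had 0.586 and 0.570 with the day 0 libraries. The day 0 libraries had 0.951 with each other, so over all contigs the day 3 libraries agreed less well than those of day 0. Contigs share library and depth, so these correlations are descriptions.

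Most contigs differed between the days. In the whole comparison 77.8% of the contigs were called, at an adjusted p under 0.05 (limma on log2(FPKM + 1), Benjamini-Hochberg adjustment over the 15128, n = 2 libraries per day). Of all tested, 3842 (25.4%) were raised on day 3 and 7922 (52.4%) were lowered. Both day 3 libraries lay above both day 0 libraries for 4585 of all tested contigs (30.3%) and below them for 8784 (58.1%), among them 3841 of the raised and 7918 of the lowered contigs. The count of rises was 6338 when day 3 library 2 was left out, with 18415 contigs then tested, and 3762 when day 3 library 1 was left out.

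**Figure D1:**
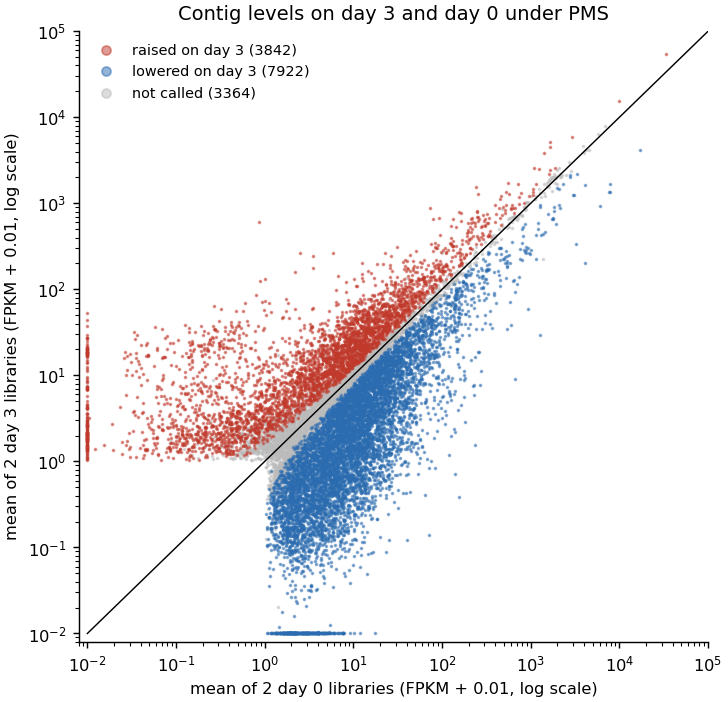
Mean FPKM of the 2 day 3 libraries (vertical) against the mean of the 2 day 0 libraries (horizontal), both + 0.01 on log scales, for the 15128 contigs. Red points (3842) were raised on day 3, blue points (7922) were lowered and grey points (3364) were not called, and the line marks equal levels.

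The rule that admits contigs shapes these counts, so they are split by the day on which a contig reached 1 FPKM in both libraries. On both days 9505 contigs did so, of which 2550 were raised, 4488 lowered and 2467 not called. Another 1729 reached it on day 3 alone, with 1292 raised and 437 not called. A further 3894 reached it on day 0 alone, with 3434 lowered and 460 not called. Entry through a single day favours contigs that are higher on it, so only the contigs of both days bear on the balance of rises and falls.

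That balance depended on how libraries were scaled. With FPKM as deposited, 63.8% of the calls among contigs of both days were falls. After each library was divided by its median ratio over the 15673 contigs above 0 FPKM in all 12 libraries, 3937 of them were raised and 3158 lowered, and falls were 44.5% of the calls. Over all 15128 contigs the rescaled fit gave 5473 rises and 6263 falls. The rescaling moved the median log2 change from -0.61 to -0.15, a shift of 0.46. The divisors were 1.27 and 1.16 on day 0, and 0.79 and 0.83 on day 3, so rescaling moved changes upward. Each of the 3842 rises was also called after rescaling, which this direction favours and which is no separate support. Of the 7922 falls, 6263 were still called. Among the other falls, 1616 were not called after rescaling and 43 were called raised.

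**Figure D2:**
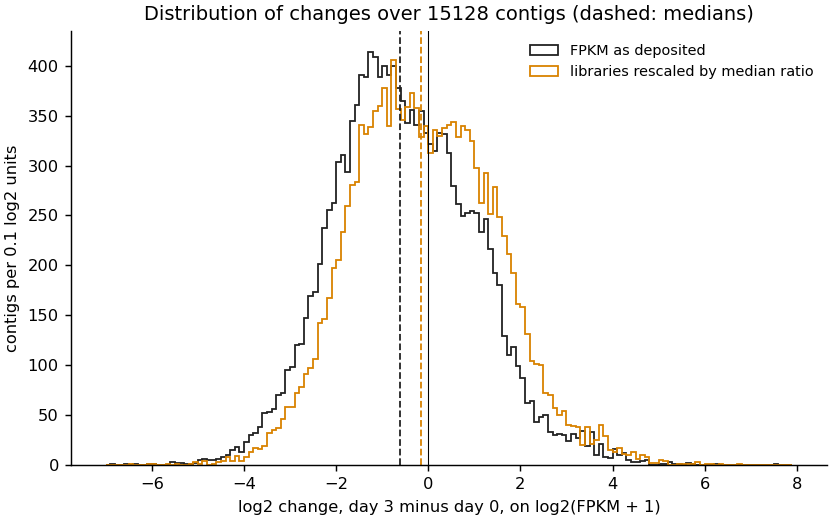
Number of contigs (vertical, per 0.1 log2 units) by log2 change of day 3 minus day 0 on log2(FPKM + 1) (horizontal), for FPKM as deposited (black) and for libraries rescaled by median ratio (orange). Dashed lines mark the medians, -0.61 as deposited and -0.15 after rescaling.

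Changes were often large. The median rise among raised contigs was 2.37-fold and the median fall among lowered contigs 2.86-fold on log2(FPKM + 1), a scale that makes folds of scarce contigs too small. Among contigs called after rescaling, the median log2 changes were 1.36 for rises and -1.38 for falls, against 1.24 and -1.51 as deposited. These medians, and the counts over all contigs below, include contigs that entered through a single day, where such entry favours a change. The 2-fold mark was passed by 2469 rises and 5977 falls, and the 4-fold mark by 755 rises and 2411 falls. At least 8-fold was reached by 282 rises and 628 falls, and 16-fold by 70 rises and 107 falls. After rescaling the 4-fold counts were 1313 rises and 1481 falls, and the 16-fold counts were 113 and 47. Among contigs of both days alone, 2-fold was reached by 1360 rises and 2924 falls as deposited, and 4-fold by 299 and 1088. At 8-fold there were 55 rises and 279 falls as deposited, and at 16-fold 13 and 61. After rescaling, 16-fold was reached by 23 rises and 24 falls of these contigs. Among contigs of both days, 299 rose and 572 fell by at least 4-fold under both scalings. Since rescaling moved changes upward, these are the rises as deposited and the falls after rescaling.

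The 2 largest rises by the naming rule were of contigs at a few FPKM on day 0 and above 100 FPKM on day 3. TRINITY_DN3592_c0_g1_i1_4 had 252 and 279 FPKM in the day 3 libraries, against 2.60 and 2.42 FPKM in the day 0 libraries. This is 106-fold in mean FPKM, with a difference of 6.24 (SE 0.09) on log2(FPKM + 1) and a limma adjusted p of 1.77e-09. Its days do not overlap, and the libraries of each day lie close together. In the control it stood at 0.998 and 0.749 FPKM, and after day 3 at 73.0 and 68.9 FPKM (day 6), 249.6 and 269.7 FPKM (day 9), then 596 and 607 FPKM (day 12). The level thus dipped on day 6 and was highest on day 12.

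TRINITY_DN497_c1_g1_i1_1 had 267 and 227 FPKM on day 3, against 3.12 and 3.79 FPKM on day 0. Mean FPKM was 71.6-fold higher, and log2(FPKM + 1) by 5.80 (SE 0.11) at a limma adjusted p of 2.48e-09. In contrast to the first contig its highest values were those of day 3. The control had 1.34 and 1.41 FPKM. Day 6 had 139 and 135 FPKM, and the day 9 and day 12 libraries lay between 80.3 and 91.8 FPKM.

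The 2 largest falls were of contigs well above 10 FPKM on day 0 and in the control. TRINITY_DN1160_c0_g1_i2_2 had 1.78 and 1.33 FPKM on day 3, against 246 and 220 FPKM on day 0. Mean FPKM differed 150-fold, and log2(FPKM + 1) by -6.52 (SE 0.15) at a limma adjusted p of 7.89e-09. It had 204 and 219 FPKM in the control, and the 6 libraries of later days lay between 10.3 and 14.9 FPKM. All later treated libraries lay above both day 3 libraries and far below the control.

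TRINITY_DN4208_c0_g1_i1_2 had 0.619 and 0.799 FPKM on day 3, against 141 and 135 FPKM on day 0, a 195-fold difference in mean FPKM. It entered through day 0 alone, and such entry favours a fall. The fold rests on day 3 values below 1 FPKM, at an unknown depth. On log2(FPKM + 1) the difference was -6.35 (SE 0.23), at a limma adjusted p of 3.78e-08. Its control libraries had 94.5 and 93.1 FPKM. It returned further than the previous contig, with 21.0 and 20.3 FPKM for day 6, 25.9 and 43.1 FPKM for day 9, then 37.4 and 24.7 FPKM for day 12.

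**Figure D3:**
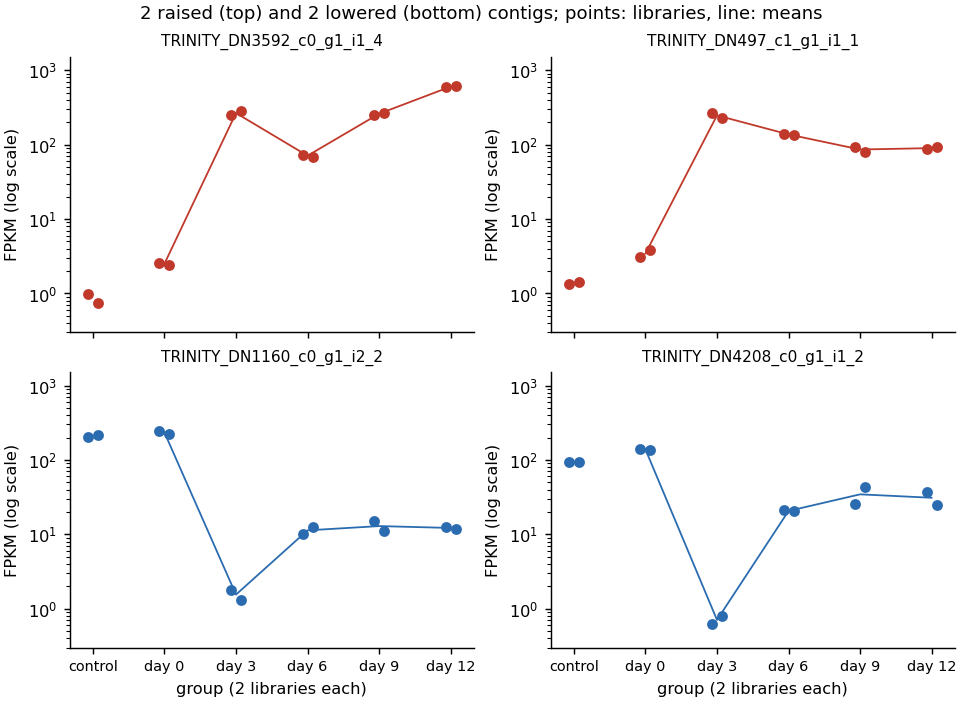
FPKM (vertical, log scale) of the 2 raised contigs (top) and the 2 lowered contigs (bottom) in every library of the control and of each treated day (horizontal). Points are libraries and lines join the treated means, and the step between day 0 and day 3 is the largest in each panel.

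The 20 largest rises and the 20 largest falls that met the same conditions are summarised next. The 20 rises had log2 changes of 4.21 to 6.24. Their median was 45.0 and 44.5 FPKM on day 3, against 0.795 and 0.832 FPKM on day 0. It was 54.0 FPKM in each day 6 library and 109 and 113 FPKM on day 12, and 7 of the 20 had a higher mean on day 6 than on day 3. The 20 falls had log2 changes of -6.52 to -4.81, with medians of 1.83 and 2.25 FPKM on day 3, against 136 and 135 FPKM on day 0. On day 12 their median was 4.92 and 6.01 FPKM. These contigs were chosen for their change between the days, so their values up to day 3 are a description. Both sets include contigs that entered through a single day, where such entry favours a change.

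A group of rises was much higher in day 3 library 1 than in library 2. Of the 755 contigs raised by at least 4-fold, 264 were over 2-fold higher in library 1 than in library 2 and 15 the other way, while 476 were within 2-fold, all on FPKM + 1. The 264 had a median of 35.5 FPKM in library 1 and 2.47 FPKM in library 2, against 0.169 and 0.0466 FPKM on day 0. They lie apart from the other contigs in the plot of the day 3 libraries against each other, as a band above the line. Only 2 of the 264 reached 1 FPKM in both day 0 libraries, against 296 of the 476. The 476 had a median of 22.4 and 22.9 FPKM on day 3, against 2.81 and 2.37 FPKM on day 0. The number of contigs raised by at least 4-fold was 1839 without day 3 library 2 and 659 without day 3 library 1.

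**Figure D4:**
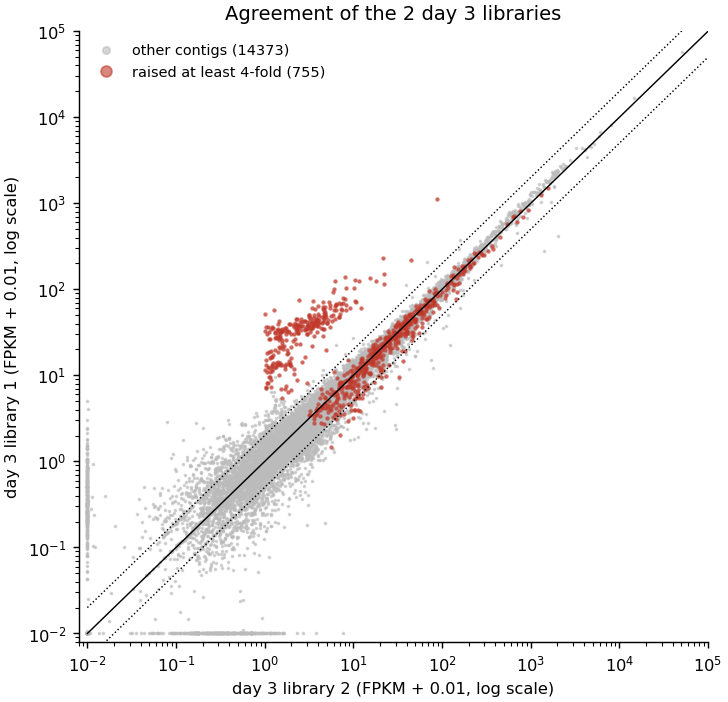
FPKM + 0.01 in day 3 library 1 (vertical) against day 3 library 2 (horizontal), both on log scales, for the 15128 contigs. Red points are the 755 contigs raised by at least 4-fold, the solid line marks equal values and dotted lines a 2-fold difference, and 264 of the red points are over 2-fold higher in library 1 when compared as FPKM + 1.

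Contigs with a large gap between the day 3 libraries are described here by the library in which they were higher. Among the 11234 contigs at 1 FPKM or more in both day 3 libraries, library 1 exceeded library 2 by over 5-fold for 259, and library 2 exceeded library 1 so for 13. The 259 with library 1 higher had a median ratio of 11.7, and 258 of them were called raised. Their share of all FPKM was 1.94% and 0.185% on day 3, against 0.0126% and 0.00593% on day 0. In the control it was 0.00587% and 0.010%. The day 6 libraries had 1.77% and 0.949%, those of day 9 had 1.38% and 0.979%, and those of day 12 had 1.87% and 1.88%. This unequal share is a measured difference between libraries of 1 group, and its cause was not tested.

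Of all contigs deposited, 9592 lay below 0.01 FPKM in both day 0 libraries. Of these, 2543 reached 1 FPKM in day 3 library 1 and 293 in library 2, but only 166 in both. Among the other contigs the numbers at 1 FPKM or more were alike, 12404 in library 1 and 12203 in library 2. A contig listed at exactly 0 in both day 0 libraries and at 1 FPKM or more in both day 3 libraries was found 153 times, with a median of 2.78 and 1.89 FPKM on day 3. Judged without day 3 library 1 there were 264 such contigs, without its library 2 there were 2514, and 355 when day 0 library 1 was left out. Of the 153, 5 reached 1 FPKM in both control libraries and 110 in both day 12 libraries. The opposite pattern, 0 in both day 3 libraries and at least 1 FPKM in both day 0 libraries, was found for 280 contigs. Their median was 2.54 and 2.40 FPKM on day 0. With day 3 library 1 left out 527 contigs had it, with its library 2 left out 569, and with day 0 library 1 left out 450. Of the 280, 197 reached 1 FPKM in both control libraries and 12 in both day 12 libraries. No fold is given for these contigs, since a listed 0 can be a failed estimate.

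The called contigs changed how the transcript pool was divided. Raised contigs held 50.2% and 51.3% of all FPKM on day 3, against 23.1% in each day 0 library. Lowered contigs made up 17.6% and 18.0% on day 3, against 49.3% and 49.2% on day 0. Contigs not called made up 29.8% and 29.98% on day 3, against 27.0% and 27.1% on day 0. Since the sets were chosen by this difference the shift itself is a description. FPKM is relative to its own library, so these shares say nothing of amounts of RNA per cell.

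The most abundant contigs of the days were in large part the same. Of the 100 contigs with the highest mean on day 3 and the 100 highest on day 0, 77 were the same. The 23 in the day 3 list alone had a median rank of 150 on day 0 and a lowest rank of 309. The 23 in the day 0 list alone had a median rank of 198 on day 3 and a lowest rank of 1927. Of the day 3 list 33 were raised and 18 lowered, or 68 and 10 after rescaling. Of the day 0 list 16 were raised and 40 lowered, or 45 and 32 after rescaling. Over all tested contigs 25.4% were raised and 52.4% lowered, or 36.2% and 41.4% after rescaling. Ranking by the day 3 level favours rises and ranking by the day 0 level favours falls, so these counts are descriptions. The most abundant contig was the same on both days, at 57746 and 50812 FPKM on day 3, against 31159 and 36542 FPKM on day 0. It was called raised, by 0.68 (SE 0.22) in log2(FPKM + 1) at a limma adjusted p of 0.0169.

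Of the 10 contigs with the highest mean on day 0, 5 were lowered by at least 4-fold, against 15.9% of all tested contigs. These 10 were chosen by their day 0 level, and after rescaling 1 of the 5 was lowered by at least 4-fold, although all 5 were still called lowered. The contig of rank 2 on day 0 had 4441 and 3835 FPKM on day 3, against 14426 and 19655 FPKM on day 0. The contig of rank 8 had 1018 and 855 FPKM on day 3, against 5615 and 6596 FPKM on day 0, a fall by 2.70 (SE 0.15) in log2(FPKM + 1) at a limma adjusted p of 3.38e-07. It stayed low later, with 278 and 252 FPKM (day 6), then 261 and 245 FPKM (day 12), against 4102 and 4459 FPKM in the control. A contig that ranked 58 on day 0 ranked 6 on day 3, at 4958 and 5232 FPKM on day 3, against 1705 and 1623 FPKM on day 0. It kept its level, with 4329 and 4331 FPKM on day 12, against 1386 and 1350 FPKM in the control. Levels are compared here per length, as FPKM gives them.

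With FPKM as deposited, raised contigs of both days largely kept their new level at later times, as the plot of medians by library shows. Lowered contigs of both days returned in part and stayed below their day 0 level. The divisors of the rescaling were 0.79 and 0.83 on day 3, and 0.98 to 1.07 on day 6 to day 12. Rescaling would thus raise the day 3 medians relative to the later ones, and rescaled medians were not computed. Raised contigs of both days had a median of 23.2 and 23.5 FPKM on day 3, against 10.1 and 9.18 FPKM at day 0. The control had 11.4 and 11.1 FPKM. Their median was 22.1 and 22.2 FPKM at day 6, 20.2 and 23.5 FPKM at day 9, then 22.5 and 22.2 FPKM at day 12. Lowered contigs of both days had 4.71 and 4.66 FPKM on day 3, against 16.4 and 15.8 FPKM on day 0. The control had 14.1 and 14.3 FPKM. They came back in part, to 6.92 and 6.86 FPKM at day 6, with 6.28 and 6.33 FPKM at day 12.

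Contigs that entered through a single day had lower levels. Each set entered through the day on which it is high, so its gap between day 3 and day 0 is a description. Raised contigs of day 3 alone had 2.98 and 2.77 FPKM on day 3, against 0.311 and 0.198 FPKM on day 0, with 5.34 and 5.21 FPKM at day 12. Of these 1292 contigs, 281 were over 2-fold higher in day 3 library 1 than in library 2 on FPKM + 1, and 43 the other way. Lowered contigs of day 0 alone had 0.377 and 0.375 FPKM on day 3, against 3.68 and 3.84 FPKM on day 0, with 0.824 and 0.841 FPKM at day 12.

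**Figure D5:**
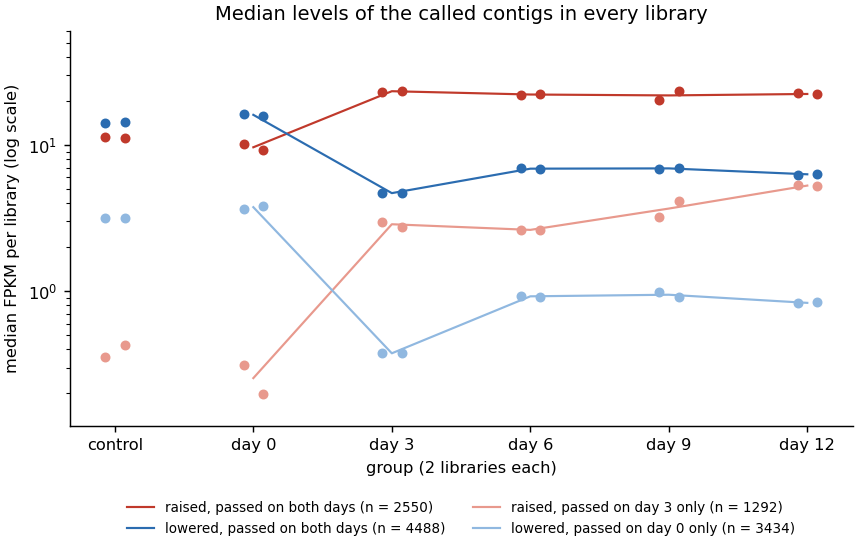
Median FPKM as deposited per library (vertical, log scale), in the control and at each treated day (horizontal). The contigs were raised or lowered on day 3 and are split by the days on which they reached 1 FPKM. Points are libraries and lines join the treated means, and from day 3 on the raised contigs of both days lie between 20.2 and 23.5 FPKM and the lowered ones between 4.66 and 6.98 FPKM.

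Day 6 and day 12 against the control share no library with the comparison of day 3 with day 0. All come from the same fit, however, so the pooled spread of a contig is shared. A contig with a small spread is called more easily in each of these comparisons. By limma at an adjusted p under 0.05, day 6 exceeded the control for 25.2% of the 15128 contigs and lay below it for 44.9%. Of the 2550 raised contigs of both days, 67.0% were higher on day 6 and 8.08% lower. Of the 4488 lowered contigs of both days, 72.3% were lower on day 6 and 9.74% higher. Of the 2467 contigs of both days that were not called, 24.9% were higher on day 6 and 29.3% lower. Against the control, day 12 was called above for 26.2% of all tested and below for 45.9%. Raised contigs of both days were higher in 65.0% and lower in 8.20%, and lowered contigs were lower in 75.4% and higher in 9.65%. Contigs of both days that were not called were higher in 24.5% and lower in 31.5%. With libraries rescaled and the lists called anew, 67.5% of the raised and 67.5% of the lowered kept their direction on day 6, and 65.0% and 72.3% did on day 12. Over all contigs the rescaled shares were 32.0% higher and 35.3% lower on day 6, and 32.2% higher and 37.2% lower on day 12. The control's title leaves its day unclear, so exposure and culture age cannot be told apart in these values either.

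Many contigs were not called, and for a good part of them the data were precise enough to bound the change. Of the 3364 not called, 2202 had a 95% interval of the difference within 2-fold in either direction, and 139 of these averaged 100 FPKM or more across the libraries. For the other 1162 the interval reached beyond 2-fold. With a pseudocount of 0.1 the count within 2-fold was 1671, and adding 1 FPKM narrows the intervals of scarce contigs. After rescaling, 1588 of the 3364 were called higher on day 3, and 731 contigs were uncalled with an interval within 2-fold under both scalings.

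Whether abundant contigs rose more often depended on which libraries set the level. Among contigs of both days with a mean of 100 FPKM or more over the 12 libraries, 44.0% were raised and 32.9% lowered. With a mean of 3 to 10 FPKM 17.6% were raised and 54.8% lowered. Graded by the control libraries alone, 26.5% were raised and 49.7% lowered at 100 FPKM or more, and 27.3% and 42.5% at 3 to 10 FPKM. After rescaling, the shares raised in these classes were 62.4% and 31.3% by the mean over 12 libraries, and 46.1% and 42.6% by the control. The mean over 12 libraries includes day 3 and day 0 themselves.

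The IDs carry a number from 1 to 4 after the assembler's name, and no source used here gives its meaning. Contigs with the number 1 had a different balance. Among contigs of both days 33.4% of those with the number 1 were raised and 38.1% lowered. For the numbers 2, 3 and 4 the shares raised were 24.4%, 24.6% and 25.3%, and the shares lowered 52.6%, 49.8% and 47.4%. After rescaling, the number 1 had 49.2% raised and 24.6% lowered, and the others 38.3% to 39.7% raised. Counts per number are descriptions and were not tested.

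Contigs with the same assembler gene name but different appended numbers changed in the same direction about as often as any pair. Of 1684 such pairs in which both contigs were called, 54.1% changed in the same direction, where any 2 called contigs do so in 56.0% of pairs. The correlation of their log2 changes was -0.02 over 2782 pairs. Pairs from the same assembler cluster with the same number but different gene names shared the direction in 63.7% of 647 pairs, with a correlation of 0.24 over 1138 pairs. After rescaling these shares were 50.0%, against 50.2% for any pair, and 64.1%. Pairs share contigs, so these are descriptions, and fragments that fit several contigs of 1 family may have been divided between them.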

How the data were processed

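FPKM values for 12 libraries were computed and deposited by the authors as 1 table. RNA was taken from whole cells with a column kit and made into Illumina TruSeq libraries, per the labels' protocols. The row names have the form of Trinity contigs. Abundance program, aligner and read filters: not given in the sources used here. Groups were read from the library titles as dose, day and number. The day 3 and day 0 libraries hold 177 to 343 values above 0 but below 1e-06 FPKM, and no whole-fragment steps were recovered, so depth is unknown and no counting interval is given. Contigs with at least 1 FPKM in both libraries of at least 1 of the days were tested on log2(FPKM + 1), a scale computed here, with limma 3.58.1 in R 4.3.3. All 12 libraries entered a fit of 6 group means with a variance trend over mean level and 6 residual degrees of freedom, and Benjamini-Hochberg adjustment ran over the 15128 contigs. An exact permutation test of 2 against 2 libraries cannot go below 0.333, so none was used. Python 3.11.15 made the summaries and figures. The fit was run on simulated data with independent noise and known changes in a small part of the contigs. That setting does not cover changes in most contigs or a difference in scale between libraries. Named contigs were the 2 largest rises and 2 largest falls, from different assembler clusters, among called contigs whose days did not overlap, with 10 FPKM or more on the higher day, values above 0 in the 4 libraries, libraries of a day within 2-fold, and the same call in the fits that kept all 12 libraries. At most 2 IDs each way are named, since no ID pairs with a gene. Members and lists were chosen with earlier results of these data known. The comparisons of day 6 and day 12 with the control were added after seeing the data. All 12 value columns matched a library title, and 0 columns were left over.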

Additional observations from a re-analysis of the deposited data

How the results depend on the processing

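The number of called contigs stayed within 1.5 times 11764 under all alternatives but a minimum of 5 FPKM, which tested 9101 contigs and called 7729, with 5129 lowered. Leaving out a library gave 11185 to 13778 calls, 3226 to 6338 rises and 7433 to 7959 falls. The highest count of rises came without day 3 library 2, where 18415 contigs were tested. A filter blind to groups, on the average of the 12 libraries reaching 1 FPKM, called 11222 of 17653 contigs. The overall median change in log2, -0.61, was -0.22 under that filter, 0.017 with no filter (30814 contigs tested), -0.55 for contigs above 0 FPKM in the 4 libraries, -0.75 with a pseudocount of 0.1 and -0.15 with rescaled libraries. Without single libraries it ran between -0.69 and -0.13. Filters and the leaving out of a library change which contigs are tested. The divisors of the rescaling moved changes upward, and a smaller pseudocount widens the changes of scarce contigs. Other causes of the shifts were not tested. With a pseudocount of 0.1, 1467 contigs rose and 4327 fell by at least 4-fold, and with rescaled libraries 1313 and 1481. A fit of the 4 libraries alone called 11118 contigs. With the replicate number as a block 11714 were called. Same-numbered libraries of day 3 and day 0 did not deviate together (correlation of deviations 0.02). Between other groups of the 6 this correlation ran from -0.19 to 0.39. The numbers have no stated meaning and are not taken as pairs. Contigs at 0 on day 0 and at least 1 FPKM on day 3 numbered 271 with below 0.1 FPKM in place of 0. Without day 0 library 2, the raised contigs of both days called higher than the control were 72.3% on day 6 and 70.2% on day 12. Low FPKM values are limited by an unknown depth.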
